A study of Mus musculus with 5 samples.

Results

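Bach1, Bach2, Bcl6, Bcl11a and Prdm1 are 5 mouse genes for DNA-binding transcriptional repressors of blood cells, and this account covers the H3K27ac peaks at and around them. Acetylated lysine 27 of histone H3, or H3K27ac, marks active promoters and enhancers. The 5 genes were chosen by name from 21887 protein-coding genes, and 107 of the 22948 peaks of the list had their summit inside one of them or within 200 kb of it. No 2 of the 5 windows shared a peak.

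The cells were bone marrow cells sorted as CD45.2+, lineage-, Sca1+ and Kit+, labelled HSC/MPP (haematopoietic stem cells and multipotent progenitors), with the genotype Mll3/4 deleted. Mll3 and Mll4 are methyltransferases that act mainly at enhancers. There were 4 H3K27ac ChIPmentation libraries, in which Tn5 adds the adapters to immunoprecipitated chromatin, and 1 input library. The input carried the same deletion, and cells with intact Mll3/4 were not analysed here, so no gain or loss is measured. The age of the animals and the Cre driver are not given in the sources used here. All values come from 1 peak list for the 4 libraries together, without replicate error, so every difference between genes is a description without a test. Read depth is unknown. A weak peak can come from few cells with much acetylation or from many with little, which cannot be told apart in a bulk sample.

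Among marker genes, a peak lay at an end of 3 of 8 genes of stem and progenitor cells and of the gate (Kit, Flt3 and Meis1, not Ly6a, Cd34, Hlf, Mecom or Procr), close to the 36.2% of all protein-coding genes. In the other groups, those with a peak at an end were 4 of 5 B-cell markers, 1 of 5 T-cell markers (Cd3d), 0 of 5 myeloid and 0 of 4 erythroid markers. Cd79a, Cd79b, Ebf1 and Pax5 were the B-cell markers with a peak, and Ms4a1 had none. The cells that carried the B-cell marks were not identified, and their part in the peaks described here was not tested.

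Bach1 and Bach2 are basic leucine zipper proteins that pair with small Maf proteins, and haem weakens their binding to DNA. Bach2 is best known in B and T cells, where it holds back effector programmes, and Bach1 represses haem oxygenase and other antioxidant genes in many tissues. Bcl6, a BTB zinc finger protein, recruits corepressors and directs the germinal centre reaction. Bcl11a, a zinc finger protein that works with the NuRD complex, is needed for B-cell development and silences fetal globin genes. Prdm1 (Blimp-1) drives plasma cell differentiation. Bach2 and Bcl6 are known to hold Prdm1 down in B cells, and Prdm1 to hold Bcl6 down in plasma cells.

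The 250 bases before each annotated start of the 5 genes are shown first, because the starts differed in whether a peak lay beside them. They come from RefSeq on GRCm38.p6, all 5 genes matched, and Bcl6 has 2 starts. They read 5′ to 3′ on the gene's own strand, with CG dinucleotides, the sites of CpG methylation, in capitals.
Bach1, chr16:87698704-87698953, plus strand: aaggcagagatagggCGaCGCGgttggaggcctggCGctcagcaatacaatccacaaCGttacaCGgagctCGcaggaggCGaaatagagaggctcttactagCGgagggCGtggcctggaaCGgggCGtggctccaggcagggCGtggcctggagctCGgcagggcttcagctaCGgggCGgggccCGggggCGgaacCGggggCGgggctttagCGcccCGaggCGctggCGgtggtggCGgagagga
Bach2, chr4:32417185-32417434, plus strand: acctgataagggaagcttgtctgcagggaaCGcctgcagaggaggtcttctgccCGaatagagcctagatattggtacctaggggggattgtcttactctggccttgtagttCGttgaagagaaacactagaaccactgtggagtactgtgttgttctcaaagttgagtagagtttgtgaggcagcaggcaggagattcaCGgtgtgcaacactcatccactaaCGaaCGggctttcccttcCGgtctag
Bcl6, first start, chr16:23988853-23989102, minus strand: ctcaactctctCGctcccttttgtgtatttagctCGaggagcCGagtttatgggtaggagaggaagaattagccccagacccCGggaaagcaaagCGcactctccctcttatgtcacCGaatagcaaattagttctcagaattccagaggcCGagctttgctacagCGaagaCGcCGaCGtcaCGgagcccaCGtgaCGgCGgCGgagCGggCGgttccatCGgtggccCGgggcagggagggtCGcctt
Bcl6, inner start, chr16:23981284-23981533, minus strand: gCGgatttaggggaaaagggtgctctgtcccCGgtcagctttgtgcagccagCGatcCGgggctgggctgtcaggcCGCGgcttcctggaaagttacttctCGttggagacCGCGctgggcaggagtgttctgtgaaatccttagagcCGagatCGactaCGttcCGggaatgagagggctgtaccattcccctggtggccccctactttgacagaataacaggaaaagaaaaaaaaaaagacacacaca
Bcl11a, chr11:24080445-24080694, plus strand: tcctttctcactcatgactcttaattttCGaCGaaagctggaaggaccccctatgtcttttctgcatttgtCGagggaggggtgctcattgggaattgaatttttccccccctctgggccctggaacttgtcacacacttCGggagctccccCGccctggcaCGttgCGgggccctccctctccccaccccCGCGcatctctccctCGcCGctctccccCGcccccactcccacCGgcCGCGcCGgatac
Prdm1, chr10:44458749-44458998, minus strand: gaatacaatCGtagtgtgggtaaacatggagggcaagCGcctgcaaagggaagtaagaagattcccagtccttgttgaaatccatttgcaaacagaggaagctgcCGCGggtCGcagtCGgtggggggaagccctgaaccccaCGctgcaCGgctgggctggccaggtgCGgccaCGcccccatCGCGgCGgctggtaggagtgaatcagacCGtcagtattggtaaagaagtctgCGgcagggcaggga
The first Bcl6 start had 21 CG dinucleotides before it and lay inside a peak, and the inner one had 13 and no peak within 1 kb. Bach1 had 25 and Bcl11a 16, both with a peak within 1 kb. Prdm1 had 15 and Bach2 7, both without. Across all 32851 promoters of the table the median was 6. It was 17 for the 9353 promoters with a peak within 1 kb of the start and 4 for the others. A peak lay within 1 kb of 61.1% of promoters with at least 15 CG dinucleotides, a group that includes the Prdm1 promoter, and of 30.9% with 5 to 14.

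The letters of 5 motifs were sought on both strands of these 250 bases. They were TGACTCA (Bach and AP-1 type), TTCCTAGAA (Bcl6 type), AAGTGAAA (Prdm1 type), TGACCA (Bcl11a type) and GAGGAAGT (PU.1 type). None was present in any of the 6 promoters. Of all promoters, 4.46%, 0.347%, 1.36%, 11.4% and 2.44% held them, in the same order. The windows are short, so this says only that the letters are not in these bases.

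At gene ends, 4 of the 5 genes had a peak within 1 kb, against 36.2% of all protein-coding genes. All 4 peaks lay at the 5′ end, and no member had a peak at its 3′ end. The strength of a peak is given as the authors' enrichment ratio over background, and −log10 q is the authors' as well. The median strongest ratio was 4.71 (interquartile range 3.52 to 6.55) over the 7929 genes with a peak at an end.

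Bcl6 (chromosome 16, 23965050 to 23988866, minus strand) had the strongest end peak of the 5, from 23986380 to 23990161, with a ratio of 8.33 and −log10 q of 25.3. It was 3782 bp wide and covered the first annotated start. Bach2 (chromosome 4, 32238413 to 32586109, plus strand) came next with a ratio of 6.73 (−log10 q of 17.1) in a peak of 6994 bp from 32237980 to 32244973. Bcl11a (chromosome 11, 24076564 to 24173558, plus strand) had a ratio of 4.71 in a 955 bp peak from 24076603 to 24077557. The Bach1 peak (chromosome 16, 87699115 to 87700039) was the weakest of the 4, with a ratio of 4.07 and −log10 q of 5.62. Bach1 runs from 87698954 to 87733346 on the plus strand, and the peak began 161 bp inside it. By these end peaks, Bcl6 and Bach2 lay above the upper quartile of genes with an end peak, Bcl11a at their median and Bach1 below it. At Bcl11a a separate peak over the annotated start had a higher ratio of 6.37 but lay outside the window at the end.

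Prdm1 (chromosome 10, 44437174 to 44528558, minus strand) was the member without a peak at an end. A peak from 44529592 to 44530172, with a ratio of 5.84 and −log10 q of 12.9, began 1034 bp before its 5′ end and so missed the window by 34 bp. With a window of 2.5 kb all 5 genes had a peak at an end, against 39.3% of all genes. The call for Prdm1 therefore rests on the width of the window, while the peak itself was stronger than the end peaks of Bach1 and Bcl11a. The Prdm1 peak was weaker than the Bcl11a peak over the annotated start of that gene, which had a ratio of 6.37.

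The outer 5′ end of a gene and its annotated start are not always the same place. The Bach2 start at 32417435 lay 179 kb inside the gene, and the nearest peak was 4.9 kb away with a ratio of 2.72. The Prdm1 start at 44458748 lay 69.8 kb inside the gene, 10.1 kb from the nearest peak. The inner Bcl6 start at 23981283 was 5.1 kb from the large peak. Judged by annotated starts, 3 of the 5 genes (Bach1, Bcl6 and Bcl11a) had a peak within 1 kb, against 38.0% of the 17492 protein-coding genes with a start in the table. At Bach2 and Prdm1 the peaks lay at or just outside the outer 5′ end and not at the annotated start. No peak called at a position does not show that acetylation was absent there.

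**Figure D1:**
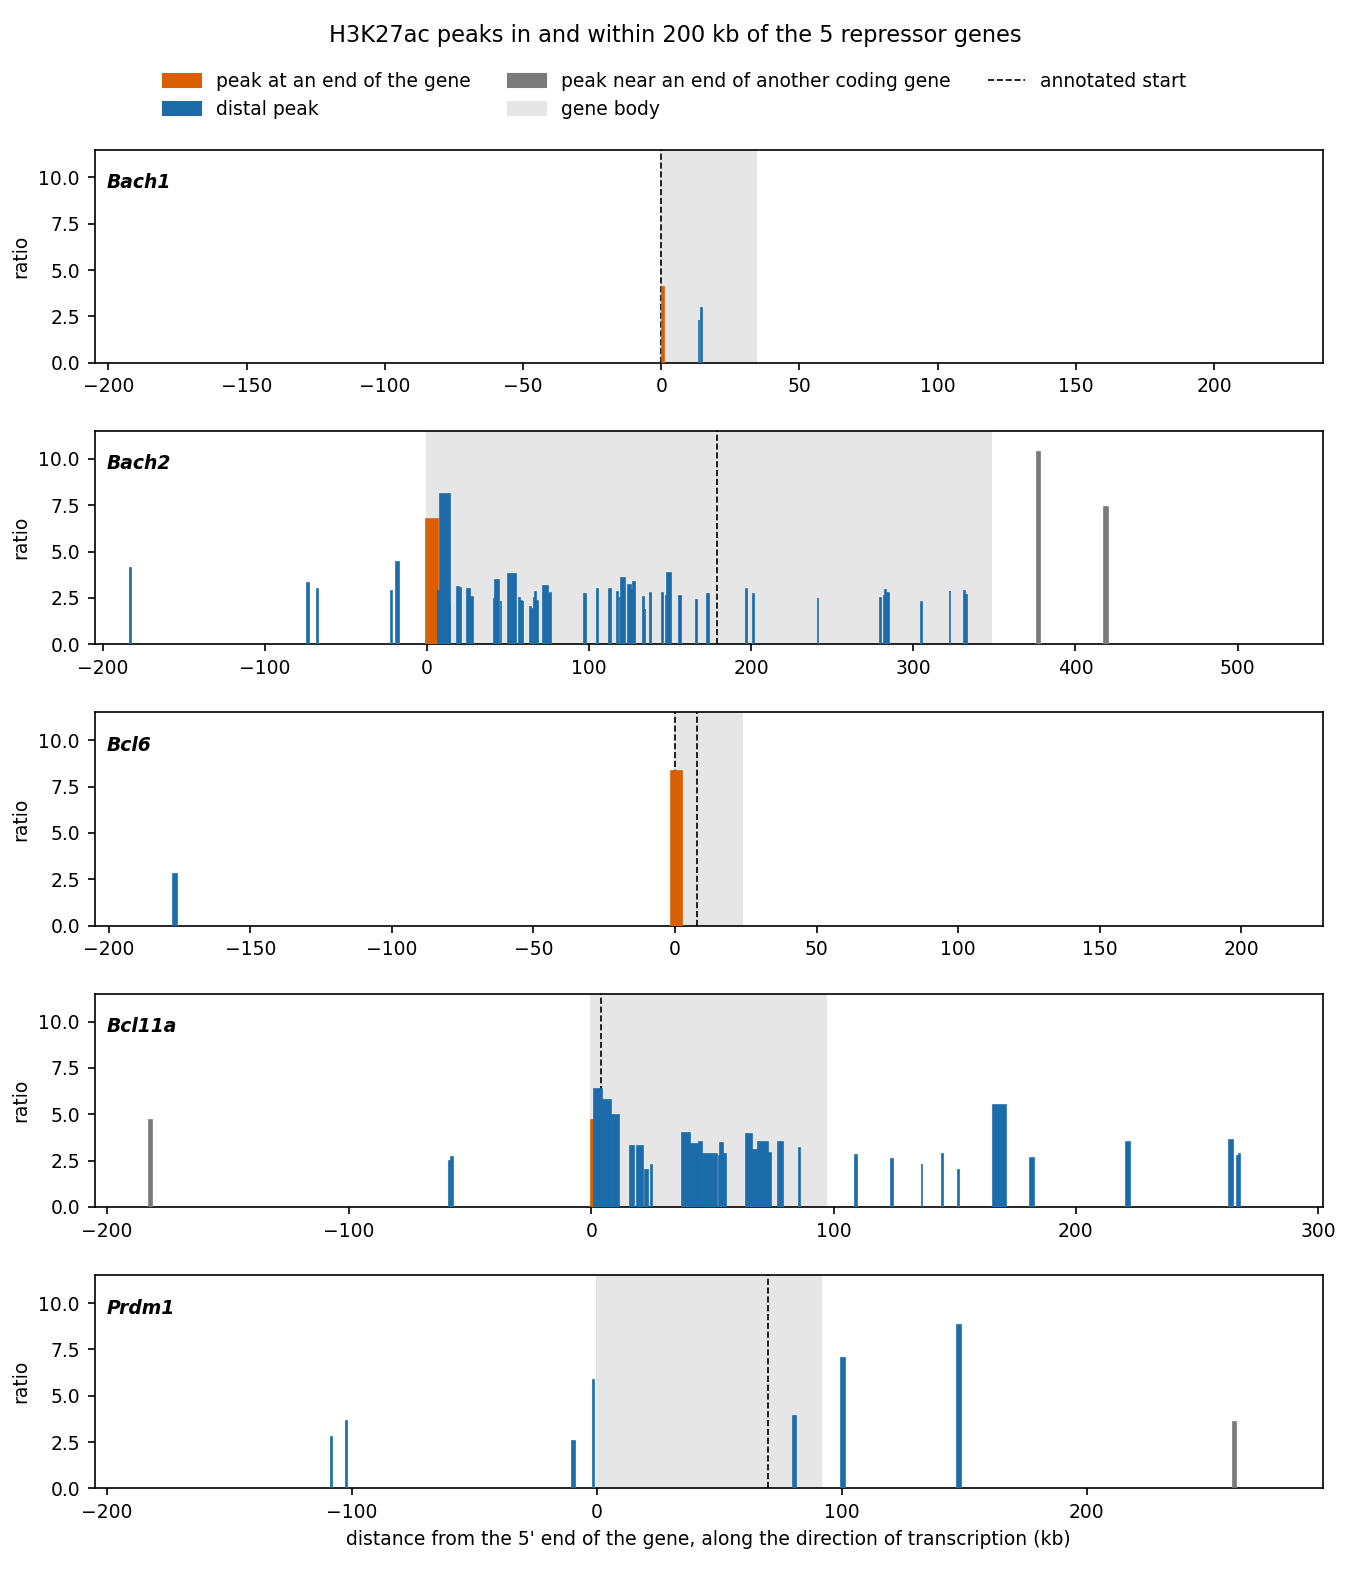
H3K27ac peaks of each gene by distance from its 5′ end in kb, along the direction of transcription. Bar height is the authors' enrichment ratio and bar width the width of the peak, with a thin outline so that narrow peaks can be seen. Grey shading is the gene and dashed lines are annotated starts. The 56 distal peaks of Bach2 and the 33 of Bcl11a contrast with 2, 1 and 7 at Bach1, Bcl6 and Prdm1.

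A peak was distal when its summit lay over 1 kb from both ends of every protein-coding gene. Within 200 kb, Bach2 had 56 distal peaks, Bcl11a 33, Prdm1 7, Bach1 2 and Bcl6 1. All 5 thus had at least 1, as did 73.4% of all protein-coding genes, and the median over all genes was 2 (interquartile range 0 to 5). Only 8 of the 21887 genes had 56 or more, Bach2 included, and 35 had 33 or more. By contrast, 17.7% of genes had at least the 7 of Prdm1, 59.4% at least the 2 of Bach1 and 73.4% at least the 1 of Bcl6. The genes differ in length, from 23.8 kb for Bcl6 to 347.7 kb for Bach2, so the windows searched differ as well.

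**Figure D2:**
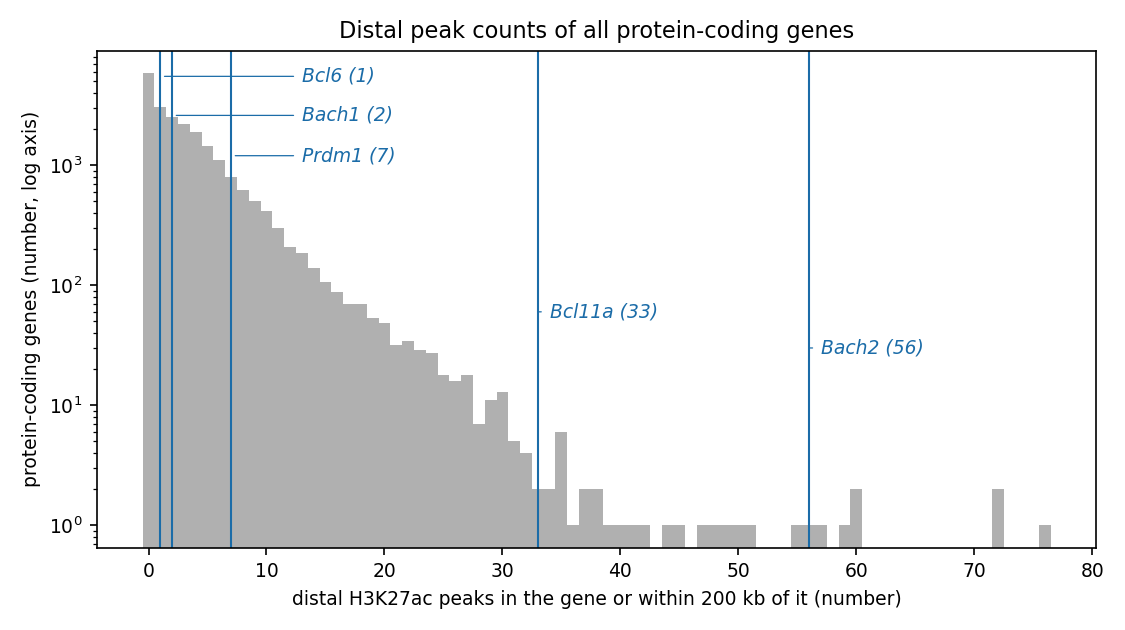
Number of distal peaks in or within 200 kb of each of 21887 protein-coding genes (x axis) against the number of genes (log y axis). Lines mark the 5 repressor genes. Bach2 with 56 and Bcl11a with 33 lie in the far tail, while Bcl6, Bach1 and Prdm1 lie at 1, 2 and 7.

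Inside the genes, 4 of the 5 members had distal peaks, against 17.8% of all protein-coding genes. Bach2 held 51 in its body, or 14.7 per 100 kb, and Bcl11a held 20, or 20.6 per 100 kb. Bach1 held 2, Prdm1 1 and Bcl6 0. Longer genes have more room for peaks, so each count was also set beside genes within a factor of 2 of its length. At least as many were held by 8.78% of such genes for Bach1 and by 40.4% for Prdm1. Of the 1062 genes of similar length to Bach2, 5 had at least 51, Bach2 included, and their median was 1. Of the 4050 such genes for Bcl11a, 11 had at least 20, and their median was 0. Peaks of any kind covered 45.9% of the Bcl11a gene, 17.8% of Bach2, 10.4% of Bcl6, 4.66% of Bach1 and 1.68% of Prdm1. Bcl11a was therefore the most densely covered, although Bach2 had more peaks.

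At Bcl11a the peaks formed long runs with short gaps. The end peak and the next 3 were separated by 181, 238 and 213 bp. With peaks within 1 kb merged, they became 1 region of 11253 bp from 24076603 to 24087855, which contains the annotated start at 24080695. The peak over that start itself, from 24077739 to 24081005, had a ratio of 6.37 and −log10 q of 15.4, the highest within 200 kb of the gene. It counted as distal because its summit lay 2.1 kb from the outer end. The next peaks along the gene had ratios of 5.78 (24081244 to 24084882) and 4.99 (24085096 to 24087855). Deeper in the gene, 7 peaks merged into a region of 17848 bp (24114213 to 24132060) and 4 into one of 10145 bp (24140530 to 24150674), with highest ratios of 3.99 and 3.95. The first of these was the 19th widest of the 17810 merged regions of the list. These inner regions were wide but weaker than the peaks at the 5′ end.

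Bcl11a also had 11 distal peaks downstream of the gene and 2 upstream. The strongest downstream peak, from 24242196 to 24247855, was 5660 bp wide with a ratio of 5.51 and −log10 q of 11.3, and its summit lay 71.7 kb past the 3′ end. It was the widest distal peak of Bcl11a. The other downstream peaks had ratios of 1.99 to 3.60. Bcl11a was the nearest protein-coding gene for all 33 distal peaks, and Papolg, the only other coding gene with an end in the window, lay 181.3 kb away with an end peak of ratio 4.71.

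At Bach2 the strongest distal peak lay near the 5′ end, and 3 of the 56 had a ratio of at least 4, one inside the gene and 2 upstream of it. That is 5.36%, against 23.4% of all distal peaks of the list. The distal peak from 32246555 to 32252435 was 5881 bp wide, with a ratio of 8.08 and −log10 q of 24.4, and its summit lay 12.5 kb inside the gene. It was both the strongest and the widest distal peak of Bach2. Merged with its neighbours and the end peak it gave a region of 14982 bp from 32237980 to 32252961, the 34th widest of the list. The next strongest lay upstream, with ratios of 4.44 (32219276 to 32220960, 18.7 kb outside the gene) and 4.14 (32055361 to 32055933, 182.9 kb outside and nearer to Map3k7). The other distal peaks of Bach2 had ratios of up to 3.85.

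The peaks were unevenly spread over the Bach2 gene. Between the outer 5′ end and the annotated start, 179 kb held 40 distal peaks, or 22.3 per 100 kb. From that start to the 3′ end, 168.7 kb held 11, or 6.52 per 100 kb. The median ratios of the stretches were close, at 2.73 and 2.72, and the median widths were 885 and 641 bp. The strongest of the 11 later peaks had a ratio of 2.97. No distal peak lay within 200 kb downstream of Bach2. Peaks were found there only at the ends of Casp8ap2 (ratio 10.4) and Mdn1 (ratio 7.38), whose nearest ends lay 29.4 kb and 71.0 kb from Bach2. Gja10, between Bach2 and Casp8ap2, had no peak at an end.

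Prdm1 had 7 distal peaks, above the upper quartile of 5 over all genes though fewer than Bach2 or Bcl11a. Of these 7, 3 had a ratio of at least 4, a share above the 23.4% of all distal peaks. The strongest, from 44379926 to 44381490, had a ratio of 8.82 and −log10 q of 28.3. It lay 56.5 kb downstream of the 3′ end of Prdm1 and 16.4 kb from Atg5, the nearer gene. A second, from 44427345 to 44428761, had a ratio of 7.04 and −log10 q of 18.9 and lay 9.6 kb downstream. The third was the peak just outside the 5′ end. The other distal peaks had ratios of 3.88 (in the body), 3.64, 2.78 and 2.57, the last 3 of them upstream. Of the 69.8 kb between the outer 5′ end and the annotated start of Prdm1, no part held a peak summit. Atg5, a gene of autophagy and the only coding neighbour, had an end peak with a ratio of 3.59.

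Bach1 and Bcl6 had little beyond their end peaks. The distal peaks of Bach1 lay 13.7 and 14.6 kb inside the gene, with ratios of 2.32 and 2.94 and widths of 229 and 449 bp. No other peak summit lay within 200 kb on either side. The single distal peak of Bcl6, from 24164611 to 24166176, lay 176.2 kb upstream with a ratio of 2.78 and a width of 1566 bp. Bcl6 thus combined the strongest end peak of the 5 genes with the fewest distal peaks within 200 kb, 1 against the 2 of Bach1. With a q-value of at most 0.05 both had 1. Within 500 kb, a distance chosen after the data were seen, Bcl6 had 7 and Bach1 2. Neither Map3k7cl and Grik1 near Bach1 nor Sst and Rtp2 near Bcl6 had a peak at an end.

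The median ratio of the distal peaks was 3.88 for Prdm1 (interquartile range 3.21 to 6.44), 3.06 for Bcl11a (2.75 to 3.52) and 2.74 for Bach2 (2.49 to 3.00). It was 2.97 (2.57 to 3.88) for all 15480 distal peaks of the list. The Prdm1 median rests on 7 peaks and was 5.84 for the 5 within 100 kb. The quartile ranges of Bach2 and Bcl11a overlap each other and that of all distal peaks, but fewer of their peaks were strong. A ratio of at least 4 was reached by 5.36% at Bach2 and 12.1% at Bcl11a, below the 23.4% of all distal peaks. Median widths were 1417 bp for Prdm1, 1266 bp for Bcl11a (600 to 2622 bp) and 761 bp for Bach2 (495 to 1213 bp), against 816 bp (482 to 1467 bp) over all. For Bcl11a the median width was 2311.5 bp over the 20 distal peaks in its body, a subset chosen after the data were seen. Peaks wider than 2 kb made up 12 of the 33 at Bcl11a (36.4%) and 6 of the 56 at Bach2 (10.7%), against 14.96% of all distal peaks. A q-value over 0.05 was attached to 22 of the 56 at Bach2 (39.3%) and to 7 of the 33 at Bcl11a (21.2%), against 27.8% of all distal peaks. Neighbouring peaks of 1 gene are not independent, so these shares carry no interval.

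**Figure D3:**
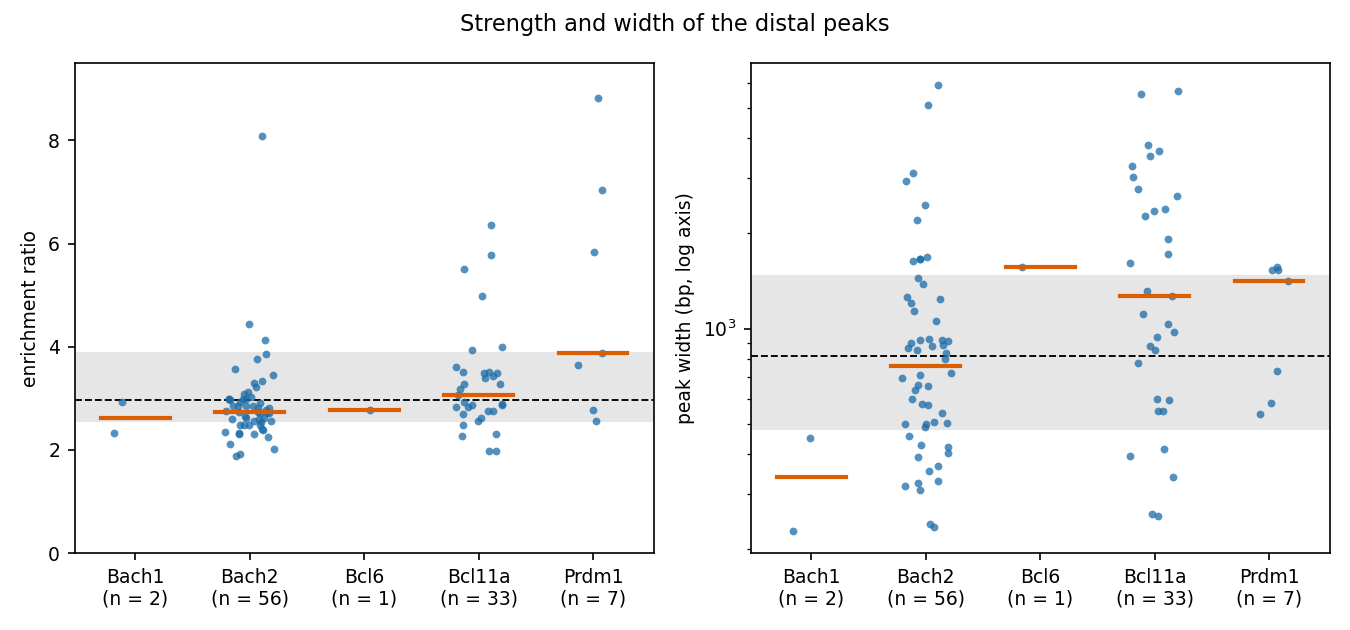
Enrichment ratio (left) and width in bp on a log axis (right) of each distal peak within 200 kb of the 5 genes. Points are peaks, orange bars medians, the dashed line the median and the grey band the interquartile range of all 15480 distal peaks. Most Bach2 points lie low at a median ratio of 2.74, while Prdm1 has 7 points with a median of 3.88.

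The counts were next held to stricter limits on the strength of a peak. With a q-value of at most 0.05, Bach2 had 34 distal peaks, Bcl11a 26, Prdm1 7, Bach1 1 and Bcl6 1, so Bach2 and Bcl11a still led. Of all protein-coding genes, 15 (0.0685%) had at least 34 such peaks, 30 (0.137%) at least 26 and 11.0% at least 7. The order changed with −log10 q of at least 5, where Bcl11a had the most at 7, and Bach2 and Prdm1 had 3 each. At least 7 such peaks were held by 213 genes (0.973%), and at least 3 by 14.4% of genes. With a ratio of at least 4 the numbers were 4 at Bcl11a, reached by 5.86% of genes, and 3 each at Bach2 and Prdm1, reached by 12.7%. In both of these lists the Bcl11a count includes the peak over its annotated start. The Prdm1 count includes the peak just outside its 5′ end in both. The lead of Bcl11a thus depends in part on that start peak being counted as distal. Bach2 was thus level with Prdm1 in the lists held to −log10 q of 5 or a ratio of 4, but not in that held to the q-value.

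**Figure D4:**
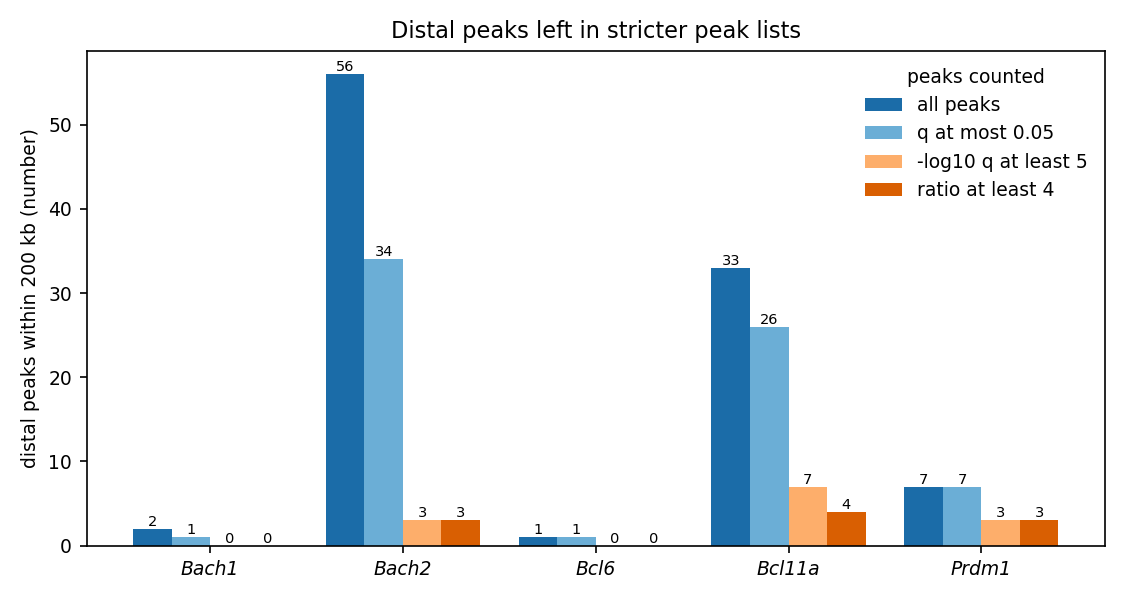
Number of distal peaks within 200 kb of each gene when all peaks are counted and in 3 stricter lists. Bach2 falls from 56 to 3 with −log10 q of at least 5, Bcl11a from 33 to 7 and Prdm1 from 7 to 3.

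Joined over gaps of up to 12 kb and ranked by the sum of ratio times width, the distal peaks of the whole list gave 8972 clusters. Bcl11a held those ranked 66 (13 peaks over 48.7 kb, 24114213 to 24162864) and 120 (7 peaks over 24.0 kb, 24077739 to 24101707). Bach2 held those ranked 140 (7 peaks over 21.7 kb), 203 (18 peaks over 77.2 kb) and 232 (15 peaks over 35.0 kb). The best rank at Prdm1 was 1543, from the single peak nearer to Atg5. It was 4240 at Bcl6 and 6620 at Bach1. The 3 Bach2 clusters ranked below these 2 of Bcl11a, although those with 18 and 15 peaks held more than either. The Bcl11a cluster ranked 120 begins with the peak over the annotated start, which counted as distal. The Bach2 end peak did not count as distal and is in no cluster. The order of these clusters without the Bcl11a start peak was not computed. Ranked by number of peaks instead, the Bach2 clusters with 18 and 15 peaks came at 17 and 29. The Bcl11a cluster with 13 peaks came at 37, and the clusters with 7 peaks of both genes at 136.

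Next, 30 related genes were set beside the members. A peak lay at an end of 24, against the 36.2% of all protein-coding genes given above. All 5 Bcl6 corepressor genes had one, with ratios from 2.88 at Hdac3, a histone deacetylase, to 6.06 at Ncor1, the corepressor scaffold that holds it. The others were Bcor (3.64), Tbl1xr1 (3.61) and Sin3a (3.46). All 8 NuRD genes had one too, led by Mta2 (8.23) and Mbd3 (5.99), with the remodeller Chd4 at 4.25 and Hdac1 lowest at 2.75. Of the 30, 15 still had a peak at an end once −log10 q had to reach 5, against 24.0% of all genes.

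Of the 6 genes around Bach1, the small Maf partners Mafk (7.99) and Maff (6.67) and the antioxidant activator Nfe2l2 (7.84) had a peak at an end. Mafg, Nfe2 and Hmox1, the haem oxygenase gene repressed by Bach1, had none, and Hmox1 also had no distal peak within 200 kb. Among 6 kin genes, Bcl6b (2.88), Prdm2 (6.82), Prdm15 (5.998) and Nfe2l1 (4.71) had an end peak, and Bcl11b and Prdm10 had none. Bcl11b, the T-lineage paralog of Bcl11a, had 1 distal peak within 200 kb against the 33 of Bcl11a. Among 5 plasma cell and germinal centre genes, Xbp1 (12.8), which drives the secretory programme, and Mzb1 (11.2) had strong end peaks, that of Mzb1 10492 bp wide. Irf4 (3.46) and S1pr2 (1.91) had weaker ones. Sdc1, the plasma cell surface marker, had none. The related genes with most distal peaks were Mta1 and Irf4 with 17 each, fewer than Bach2 or Bcl11a. Among the marker genes, Ebf1, a B-lineage factor, had 76, more than Bach2, and Pax5, which maintains B-cell identity, had 35, more than Bcl11a. Kit, the receptor used in the gate, had 25.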

How the data were processed

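H3K27ac was measured by ChIPmentation in 4 libraries over 1 input library. The submitters' processing notes name BWA, MACS2 and the build mm10, without roles, versions or filters. The single list is for all 4 libraries, per its name the overlap set of peaks over input. Per peak the authors deposited a score, an enrichment ratio (read so from the usual layout, since no header names it), a −log10 q-value and a summit. These values are the authors' and were used only within the list; ratios came in steps, so equal values have no order. Library totals, and so the depth per sample, are unknown.

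Positions were 1-based. Genes came from a RefSeq table of GRCm38.p6, the assembly of mm10, and starts and strands from its promoter table. A peak was at an end when it overlapped 1 kb on either side of either end of the gene. Counts were set beside all protein-coding genes, with Python 3.11.15 and pandas 2.3.3. The overlap and counting steps were tested on simulated peaks. The plan named the 5 genes, their end peaks, their strongest 3 and widest distal peaks, coding neighbours and lists of related and marker genes. Of these lists, 30 related and 27 marker genes are given, and other members are not reported here. Members and lists were chosen with earlier results of these data known. Counts and median widths with peaks within 1 kb merged were part of the plan. The description of single merged regions, the clusters and the use of annotated starts were added after the peaks were seen. Stricter lists, other windows and distances and other definitions of distal were tried as alternatives. No test between groups was run, since no column holds a single library.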

Additional observations from a re-analysis of the deposited data

How the results depend on the processing

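For the 5 genes together, limits on peak strength moved the counts and medians of distal peaks most. They left the number of members with an end peak at 4. A count or median was taken as moved when it changed by over 1.5 times. The 5 genes together had 99 distal peaks within 200 kb, of which 13 had −log10 q of at least 5 and 10 a ratio of at least 4, and there were 62 with peaks within 1 kb merged. Distal peaks in the bodies numbered 74, and 7, 4, 49 (q-value of at most 0.05) and 39 (merged). The median ratio of the distal peaks was 2.84, and 5.51 and 5.81 in the lists held to −log10 q and to the ratio. Their median width was 882 bp, and 2760 and 2222.5 bp in those lists and 1365.5 bp with peaks merged. Related genes with a peak at an end fell from 24 to 15 in both of those lists. That stricter lists hold fewer and stronger peaks follows from their construction. With peaks merged, Bach2 had 33 distal regions and Bcl11a 20. The count of members with an end peak was 3 by annotated start, the only setting below 4, and 5 with 2.5 kb. Annotated starts and 500 kb were chosen after seeing the data. In all, 30 of 44 recomputed summary values moved by no more than 1.5 times.

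Libraries were not left out in turn, since each value is joint for all 4. No paired analysis was possible because no column carries a replicate number. Unknown depth limits what a missing peak means.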

Other observations

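Between 200 and 500 kb from the 5 genes, distal peaks were counted after the data were seen. Bcl6 had 6 there against 1 within 200 kb, 4 of them upstream, and its protein-coding nearest neighbour for those 4 was Lpp. They lay 233.6, 427.7, 456.3 and 460.0 kb upstream of the 5′ end, with ratios of 2.84, 2.26, 2.32 and 3.00. The 2 downstream peaks lay 353.2 and 355.0 kb past the 3′ end, nearest to Rtp4, with ratios of 3.18 and 8.11. Bach2 had 26, of which 25 were downstream, past Casp8ap2 and Mdn1, and none had Bach2 as the nearest gene. Bach1 had 0, Bcl11a 5 and Prdm1 6.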
